A study of Bos taurus with 18 samples.

Results

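The pregnancy-associated glycoproteins (PAG) are proteins that the ruminant trophoblast secretes, and SSLP1, also listed as SOLD1, is a small secreted protein of the Ly-6 family that is known from the bovine placenta. All probe sets whose single listed gene was SSLP1 or a numbered PAG were taken, whatever their values. They were 22 probe sets of 20 genes, 19 PAG genes with 21 probe sets and SSLP1 with 1, out of 24016 probe sets tested and 9155 genes with a single listed symbol. No probe set was listed for PAG1, a name that also belongs to an unrelated adaptor protein.

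The samples were Bos taurus blastocysts of mixed breed, made in vitro with sex-sorted semen and frozen on day 7 after insemination. The 6 groups were female and male embryos of bull 1, bull 2 and bull 3, with 3 arrays each, so that 9 female arrays stood against 9 male arrays. Each array carried RNA of 60 pooled embryos, amplified from 50 ng, and no group had any other treatment. Each bull is a single sire, whose arrays may share a production batch that the labels do not give. Whether the pools within a group came from separate cultures is not in the labels, so the p-values reflect no more than how these pools scattered.

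PAG genes form a large family of the aspartic proteinases, the enzyme family of pepsin, and most of their products are thought to have little or no protease activity. They are secreted by the trophectoderm and later by the binucleate cells of the ruminant placenta, and PAG in the dam's blood is used to diagnose pregnancy. An older branch of the family, which includes PAG2, PAG8, PAG10, PAG11 and PAG12, is transcribed widely in the trophectoderm, whereas most other members are typical of binucleate cells, which appear after the blastocyst stage. Proteins of the Ly-6 family share a small fold held by disulphide bonds, and many sit on the cell surface by a lipid anchor.

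The values were log2 expression levels, and the median of an array lay between 5.33 and 5.49. Arrays have no read depth, and precision is limited by how many arrays there were and by dim signal, among other things. XIST, the RNA of the inactive X chromosome, lay between 8.87 and 9.57 on the female arrays and between 5.93 and 7.28 on the male arrays, so that no array went against its sex label. Between arrays, the correlation over all probe sets ran from 0.982 to 0.997. On 4 arrays, which were male bull 1 replicate 2, male bull 2 replicate 1, male bull 3 replicate 3 and female bull 1 replicate 3, the values were spread more widely around the median of all arrays, with an interquartile range above 0.25 log2. The differences of PAG2, PAG11 and SSLP1 between the sexes and between bulls are also given without these arrays. Of 12 measured trophectoderm markers 5 were dimmer than the median probe set, from PPARG at a mean level of 3.24 to ASCL2 at 4.89, and KRT8 stood at 5.77. Others were bright, among them the trophectoderm keratins KRT18 and KRT19 at mean levels of 14.04 and 10.29, the trophectoderm regulator TEAD4 at 9.53 and the pluripotency factor POU5F1 at 11.93.

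PAG2 and PAG11 were lower in females than in males, SSLP1 was higher in females, and the other 19 probe sets did not pass the test. By limma's test, with p-values adjusted over all probe sets by the Benjamini-Hochberg method and a threshold of 0.05, 3 of 22 members differed by sex, against 15.6% of all probe sets. Of these, 1 was higher in females, against 8.12% of all probe sets, and 2 were higher in males, against 7.47%. The share among the members was therefore near the background, and the count sets the genes apart in no way. A difference in level cannot tell fewer cells that transcribe a gene from less RNA per cell, since each value comes from a pool of whole embryos.

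**Figure D1:**
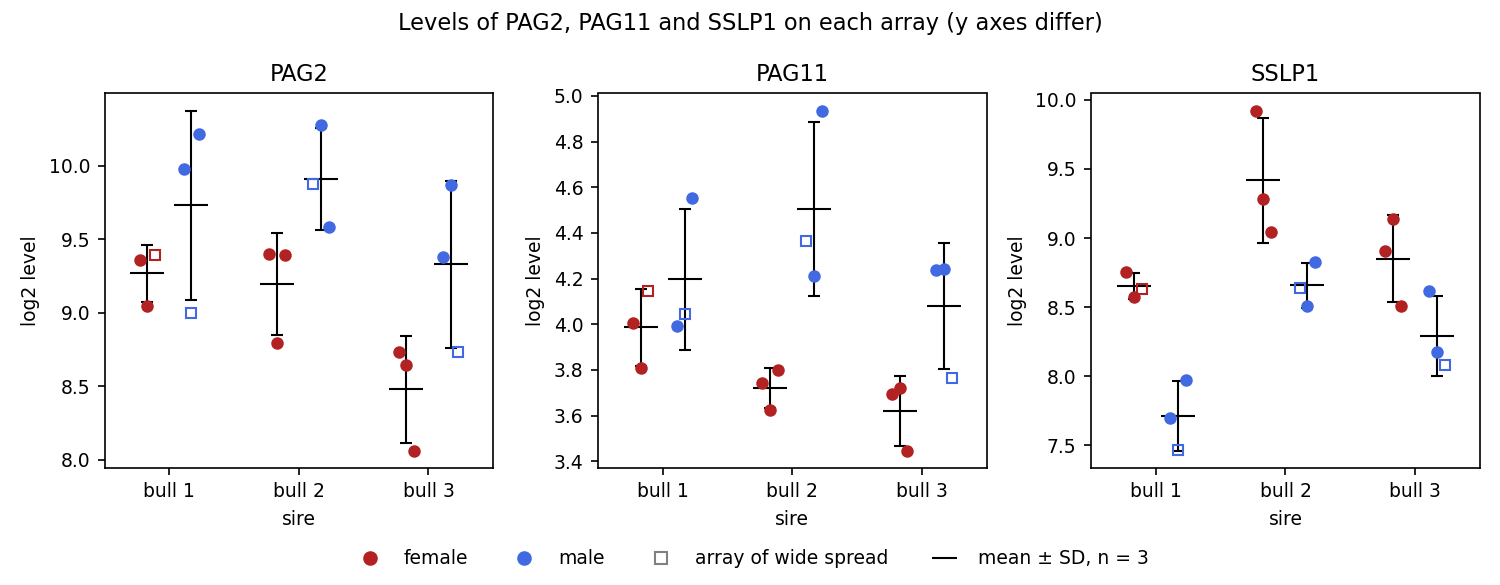
Log2 level (y axis, a separate scale per panel) of PAG2, PAG11 and SSLP1 on each of 18 arrays by bull (x axis), females in red and males in blue, with the mean ± SD of each group of 3 arrays as bars and the 4 arrays of wide spread as open squares. Male means lie above female means for PAG2 and PAG11 and below them for SSLP1 in every bull, and single arrays of the sexes overlap in some bulls.

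PAG2, on probe set Bt.1381.1.S1_at, is a member of the older PAG branch. Its log2 levels in females were 9.36, 9.05 and 9.39 in bull 1, then 9.40, 8.79 and 9.39 in bull 2, then 8.73, 8.64 and 8.06 in bull 3. In males they were 9.98, 8.998 and 10.22 in bull 1, then 9.88, 10.28 and 9.58 in bull 2, then 9.38, 9.87 and 8.73 in bull 3. The females of bull 3 were the lowest group and the males of bull 2 the highest, and the sexes overlapped, since the lowest males stood among the females.

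The mean level of PAG2 was 8.98 ± 0.46 on the 9 female arrays and 9.66 ± 0.53 on the 9 male arrays (mean ± SD), a difference of -0.68 log2 with a standard error of 0.17 and a 95% confidence interval from -1.04 to -0.32. This is 1.60-fold lower in females, with an adjusted p of 0.0103 in limma's test. In all 3 bulls the female mean was below the male mean. The call was lost without bull 2 (adjusted p = 0.08) and without bull 3 (adjusted p = 0.068).

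The low male arrays of PAG2 were arrays of wide spread. Male bull 1 replicate 2 stood at 8.998 and male bull 3 replicate 3 at 8.73, against 9.38 to 10.28 in the 6 males without wide spread. The other arrays of wide spread were not low, with male bull 2 replicate 1 at 9.88 and female bull 1 replicate 3 at 9.39. Without the 4 arrays, PAG2 lay at 8.93 ± 0.47 in females (n = 8, from 8.06 to 9.40) and at 9.88 ± 0.35 in males (n = 6, from 9.38 to 10.28), so that the sexes met only between 9.38 and 9.40. The fit of these 14 arrays gave -0.93 log2, 1.90-fold lower in females, with an adjusted p of 0.00077 in limma's test. The low male arrays also stood at an end of the 5′ minus 3′ signal of 3 control transcripts, a sign of RNA integrity. Their values were 0.447 and -1.268, against -0.786 to 0.0463 on the other 16 arrays. With that index as a linear covariate the difference was -0.68 log2 (adjusted p = 0.0123 in limma's test). Male bull 1 replicate 2 and male bull 3 replicate 3 lie at opposite ends of the index. A linear term cannot take up a fall at both ends, and the part of RNA integrity in the difference was not tested.

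PAG11, on probe set Bt.1436.1.S1_at, belongs to the same older branch, and its probe set was dim. Its log2 levels in females were 4.004, 3.81 and 4.15 in bull 1, then 3.74, 3.62 and 3.80 in bull 2, then 3.69, 3.72 and 3.45 in bull 3. In males they were 3.99, 4.05 and 4.55 in bull 1, then 4.36, 4.21 and 4.94 in bull 2, then 4.24, 4.24 and 3.76 in bull 3. The male arrays stood above the female arrays in bulls 2 and 3, while in bull 1 the groups overlapped.

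The mean of PAG11 was 3.78 ± 0.20 on the 9 female arrays and 4.26 ± 0.34 on the 9 male arrays (mean ± SD), a difference of -0.48 log2 with a standard error of 0.10 and a 95% confidence interval from -0.70 to -0.27. This is 1.40-fold lower in females, with an adjusted p of 0.00291 in limma's test, and the female mean was lower in all 3 bulls. Without bull 2 the difference was -0.34 log2 and did not pass (adjusted p = 0.11). Without the 4 arrays of wide spread it was -0.61 log2 (adjusted p = 0.00182). PAG2 and PAG11 are similar in sequence to other PAG genes, and a probe set of one can catch transcripts of another, so that both identities are uncertain.

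SSLP1, on probe set Bt.9985.1.S1_at, ran the other way. Its log2 levels in females were 8.75, 8.57 and 8.63 in bull 1, then 9.92, 9.28 and 9.05 in bull 2, then 8.90, 9.14 and 8.51 in bull 3. In males they were 7.70, 7.47 and 7.97 in bull 1, then 8.64, 8.51 and 8.83 in bull 2, then 8.62, 8.17 and 8.08 in bull 3. Within bulls 1 and 2 every female array was above every male array, and in bull 3 the highest male exceeded the lowest female.

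The mean of SSLP1 was 8.97 ± 0.44 on the 9 female arrays and 8.22 ± 0.46 on the 9 male arrays (mean ± SD), a difference of 0.75 log2 with a standard error of 0.12 and a 95% confidence interval from 0.51 to 1.00. This is 1.68-fold higher in females, with an adjusted p of 0.000156 in limma's test. The female mean was the higher in all 3 bulls, and the call held in all 31 alternative fits, with values from 0.66 to 0.85 log2. Without the 4 arrays of wide spread the difference was 0.68 log2 (adjusted p = 0.00411).

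All member genes lie on chromosome 29, in RefSeq's table of the assembly ARS-UCD2.0, which was used here for names and gene order only. From PAG10 to PAG8 that table lists 31 protein-coding genes, of which 19 are the PAG genes taken here. The other 12 have provisional names, and whether they were measured was not looked up. Among the 19, PAG2 stands next to PAG10 and PAG12, and 15 lie between PAG2 and PAG11. Both differed by sex, while none of these 15 genes between them did. SSLP1 lies outside that stretch, with 55 protein-coding genes between it and PAG10.

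**Figure D2:**
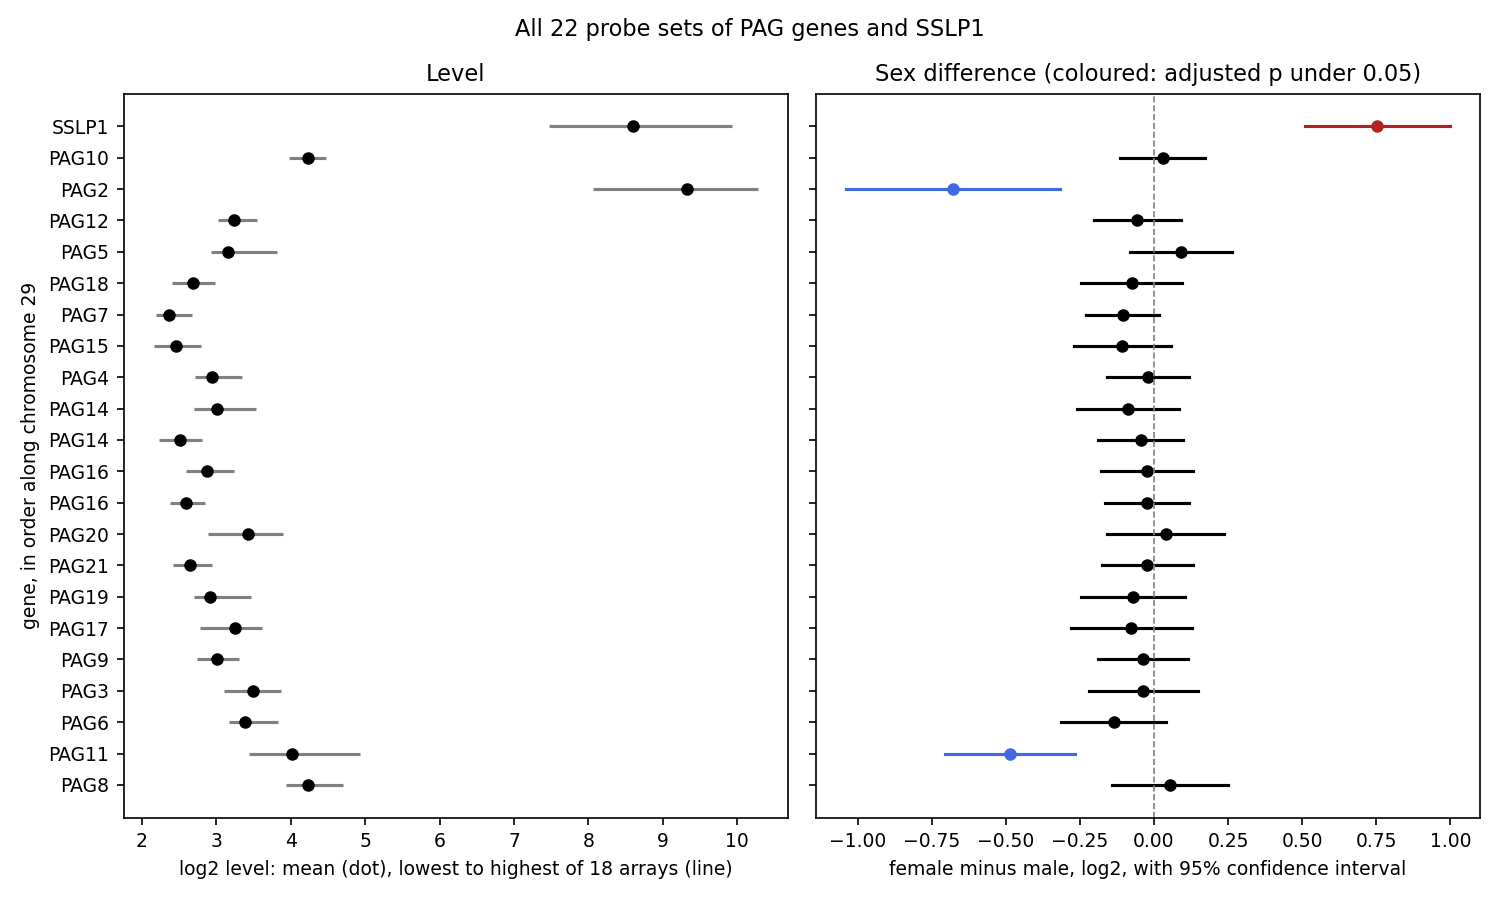
All 22 probe sets (y axis, in gene order along chromosome 29), with the mean log2 level over 18 arrays and the range from lowest to highest array (left) and the female minus male difference in log2 with its 95% confidence interval (right, coloured where the adjusted p was under 0.05). PAG2, PAG11 and SSLP1 have intervals clear of 0, and the other 19 intervals include 0.

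Of the 21 PAG probe sets, 20 were dimmer than the median of all probe sets on the array. Their mean levels ran from 2.37 for PAG7 to 4.24 for PAG8 and PAG10, while PAG2 stood at 9.32. Brightness also depends on the probes themselves, so these levels do not rank the genes by transcript amount, and a difference of a dim transcript can be understated. Of the 5 genes of the older branch, 2 differed by sex, against 15.6% of all probe sets, with differences from -0.68 to 0.05 log2. Of the 16 probe sets of the other 14 PAG genes none passed, with differences from -0.14 to 0.09 log2. That division of the family is textbook knowledge brought in after the values were known, and it was not tested.

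The 19 members that did not pass had sex differences from -0.14 log2 for PAG6 to 0.09 log2 for PAG5. Of these, 15 were negative and 4 positive, with a median of -0.04 log2, against -0.03 log2 over all probe sets. Their 95% confidence intervals lay between -0.31 and 0.26 log2, and the smallest adjusted p was 0.273, for PAG7. At an unadjusted p under 0.05 there were 3 of all 22 members, against 26.5% of all probe sets. These were PAG2, PAG11 and SSLP1, so that none of the 19 was among them. PAG8 had 4.26 ± 0.25 in females and 4.21 ± 0.17 in males, and PAG10 had 4.25 ± 0.13 and 4.22 ± 0.16. PAG3, PAG9, PAG17, PAG18, PAG19 and PAG21 had differences from -0.08 to -0.02 log2. PAG12, also of the older branch, had 3.21 ± 0.14 and 3.27 ± 0.15. PAG14 and PAG16 had 2 probe sets each, and the pairs gave -0.09 and -0.04 log2 for PAG14 and -0.02 log2 for both of PAG16.

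Within single bulls, the question was whether the sexes differed in the same way for each sire. SSLP1 passed in bull 1 and bull 2, PAG11 passed in bull 2, and PAG2 passed in no single bull. Of 22 members 1 passed in bull 1, 2 in bull 2 and 0 in bull 3, against 4.2%, 3.13% and 4.18% of all probe sets. In bull 3, 3 members had an unadjusted p under 0.05, against 15.9% of all probe sets, and they were PAG2, PAG11 and SSLP1.

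SSLP1 differed by 0.94, 0.76 and 0.56 log2 in bulls 1, 2 and 3, with limma's adjusted p of 0.0105, 0.0467 and 0.148. In bull 2 the call was lost in 11 of 18 fits without 1 array, which include arrays of the other bulls, since all groups share 1 estimate of the spread. The value there was lowest without female bull 2 replicate 1 (0.51 log2, adjusted p = 0.25). In bull 1 the call was lost without male bull 1 replicate 2 (0.82 log2, adjusted p = 0.051) and without the 4 arrays of wide spread (0.83 log2, adjusted p = 0.103). PAG11 differed by -0.21, -0.78 and -0.46 log2 in bulls 1, 2 and 3 (adjusted p = 0.635, 0.0195 and 0.193 in limma's test). Its call in bull 2 was lost without male bull 2 replicate 3 (-0.57 log2, adjusted p = 0.106), without female bull 2 replicate 1 (adjusted p = 0.0615) and without female bull 2 replicate 2 (adjusted p = 0.0961). In bull 1 the value was -0.03 log2 without male bull 1 replicate 3 and -0.12 log2 without female bull 1 replicate 2.

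PAG2 differed by -0.46, -0.72 and -0.85 log2 (adjusted p = 0.485, 0.262 and 0.134 in limma's test). In bull 1 the value was -0.22 log2 without male bull 1 replicate 3 and -0.83 log2 without male bull 1 replicate 2. In bull 3 it passed without male bull 3 replicate 3, an array of wide spread, at -1.15 log2 (adjusted p = 0.046). Without all 4 arrays of wide spread PAG2 differed by -0.89, -0.73 and -1.15 log2 in bulls 1, 2 and 3, and passed in bull 3 (adjusted p = 0.0169). PAG11 then differed by -0.37, -0.85 and -0.62 log2, and passed in bull 2 (adjusted p = 0.02). SSLP1 then differed by 0.83, 0.75 and 0.45 log2 and passed in no bull.

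**Figure D3:**
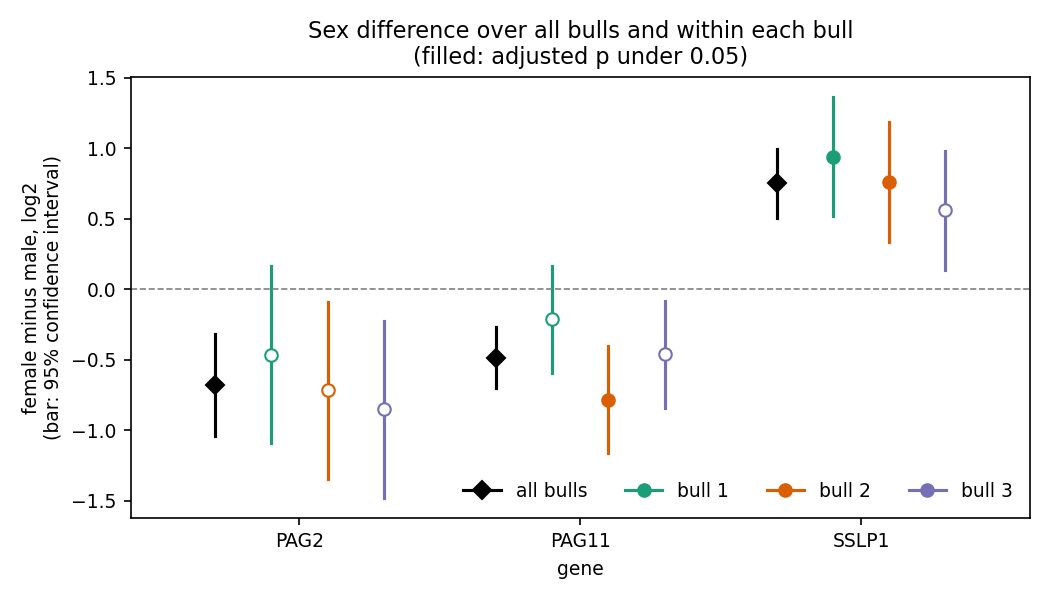
Female minus male difference in log2 (y axis) of PAG2, PAG11 and SSLP1 over all bulls (diamonds) and within each bull (circles), with 95% confidence intervals as bars and filled symbols where the adjusted p was under 0.05. The differences of a gene have 1 sign in all 3 bulls, negative for PAG2 and PAG11 and positive for SSLP1, and the intervals of the bulls overlap.

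The groups of 3 arrays did not overlap between the sexes for 2, 4 and 2 members in bulls 1, 2 and 3, against 18.2%, 25.1% and 22.6% of all probe sets. SSLP1 was separated in bulls 1 and 2, and PAG2 and PAG11 in bulls 2 and 3. In bull 3 the separation of PAG2 came down to the third decimal, with the lowest male at 8.734 and the highest female at 8.730. The other separated members were the dim PAG4 in bull 1 and PAG15 in bull 2, each higher in males, neither of which passed the test there.

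No member passed the test of whether its sex difference itself differed between bulls. Limma called 0 of 22 members and 0% of all probe sets, and at an unadjusted p under 0.05 there were 1 member and 656 probe sets (2.73%). That member was PAG4, with 0.0226 unadjusted and an adjusted p of 1.00 in limma's test. The unadjusted p of this interaction was 0.655 for PAG2, 0.108 for PAG11 and 0.428 for SSLP1.

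The bulls were compared over both sexes, and a sire and an unstated batch of that sire's arrays cannot be told apart. SSLP1 differed between sires. It stood at 8.18 ± 0.54 in bull 1, 9.04 ± 0.52 in bull 2 and 8.57 ± 0.41 in bull 3 (SD, n = 6 arrays each, both sexes included). Bull 2 exceeded bull 1 by 0.86 log2, or 1.81-fold, with a standard error of 0.14 and an adjusted p of 0.0047 in limma's test. Without the 4 arrays of wide spread that difference was 0.80 log2 (adjusted p = 0.051). SSLP1 was the only member called between bulls 2 and 1, against 1.52% of all probe sets, and in both sexes its bull 2 arrays were above those of bull 1. Of 14 measured genes listed for cumulus and granulosa cells, which surround the oocyte, 3 were called in the same comparison, in both directions. The list holds matrix genes such as POSTN and DCN that other cells also express, so it is not specific to these cells. POSTN (2.16 log2) and DCN (0.84 log2) were higher in bull 2, CYP19A1 was lower (-0.49 log2), and the remaining listed genes did not pass. The mean of the list ran from 5.52 to 6.03 on the arrays of bull 1 and from 5.81 to 6.33 on those of bull 2. The list median was 0.04 log2, against -0.05 log2 over all probe sets, and the part of these cells in the difference of SSLP1 was not tested.

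No member passed in bull 3 against bull 1 or in bull 3 against bull 2, against 3.53% and 3.74% of all probe sets, with 3 and 2 members at an unadjusted p under 0.05, against 19.1% and 18.5%. PAG2 stood at 9.50 ± 0.50, 9.55 ± 0.50 and 8.90 ± 0.63 in bulls 1, 2 and 3. Bull 3 was lower than bull 1 by -0.60 log2 and than bull 2 by -0.65 log2, with adjusted p of 0.125 and 0.095 in limma's test. Both passed without male bull 1 replicate 2 (-0.78 and -0.65 log2, adjusted p = 0.0367 and 0.0431), without male bull 3 replicate 2 (-0.73 and -0.79 log2, adjusted p = 0.0425 and 0.0343) and with array weights (-0.61 and -0.56 log2, adjusted p = 0.0253 and 0.0261). SSLP1 differed by 0.39 log2 between bulls 3 and 1 and by -0.47 log2 between bulls 3 and 2 (adjusted p = 0.135 and 0.0758). The first passed with array weights (adjusted p = 0.0341) and the second with an intensity trend (adjusted p = 0.0425), in the brighter 50% of probe sets (0.0497) and when female bull 2 replicate 3 (0.0406) or male bull 3 replicate 1 (0.0415) was left out. PAG11 stood at 4.09 ± 0.25, 4.11 ± 0.50 and 3.85 ± 0.32 in the same order, and the adjusted p of its bull differences ran from 0.282 to 0.95. Without the 4 arrays of wide spread, bull 3 differed from bulls 1 and 2 by -0.60 and -0.51 log2 for PAG2, by -0.16 and -0.22 log2 for PAG11 and by 0.38 and -0.42 log2 for SSLP1, and none of these passed.

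The order of the 6 group means shows how sex and sire combined. For PAG2 the order from high to low was male bull 2 (9.91), male bull 1 (9.73), male bull 3 (9.33), female bull 1 (9.27), female bull 2 (9.19) and female bull 3 (8.48). Neighbours in that order overlapped, apart from the last pair, where every female of bull 3 was below every female of bull 2. PAG11 had the same order, with means of 4.50, 4.20, 4.08, 3.99, 3.72 and 3.62, and its neighbours overlapped except between the females of bulls 1 and 2. For SSLP1 the order was female bull 2 (9.42), female bull 3 (8.85), male bull 2 (8.66), female bull 1 (8.65), male bull 3 (8.29) and male bull 1 (7.71). Its neighbours overlapped except for the males of bull 1, which were below all other arrays.

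These 3 genes were also the members whose levels scattered most between arrays of the same group. The SD within groups was 0.44 log2 for PAG2, 0.28 for SSLP1 and 0.25 for PAG11, against a median of 0.16 over all probe sets and 0.11 to 0.23 among the other 19 members. PAG2 was more variable in this sense than 99.5% of all probe sets. Its SD was largest in the males of bull 1 (0.65 log2) and of bull 3 (0.57 log2), each of which holds a low array of wide spread. The scatter was not computed without those arrays. Of the variance of PAG2 over 18 arrays, sex took 34.2%, bull 25.8% and the spread within groups 38.1%. For SSLP1 these shares were 43.7%, 37.8% and 16.7%, and for PAG11 they were 45.7%, 11.1% and 32.5%. The median shares over all probe sets were 7.09%, 15.7% and 58.9%.

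PAG2 and PAG11 varied together across arrays. Over the 18 arrays Pearson's r was 0.724 (permutation p = 0.00049, two-sided, 0.00147 after Benjamini-Hochberg adjustment over 3 pairs) and Spearman's rho was 0.761 (permutation p = 0.00034, adjusted 0.00102). Without the 2 arrays farthest from the median of PAG2, r was 0.685, and without the 4 arrays of wide spread it was 0.711. Both genes differ by sex, which adds to these values. Within sexes r was 0.802 in 9 female arrays and 0.432 in 9 male arrays, and within bulls it was 0.707, 0.531 and 0.965 over 6 arrays each. After the 6 group means were taken away, r was 0.38 and did not pass (permutation within groups, p = 0.245), so that the relation was not shown within groups.

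SSLP1 was not shown to vary with either PAG gene over all arrays. Its r with PAG2 was -0.231 and its rho -0.273 (permutation p = 0.357 and 0.269, adjusted 0.357 and 0.269), and with PAG11 r was -0.281 and rho -0.383 (permutation p = 0.258 and 0.118, adjusted 0.357 and 0.177). Without the 2 arrays farthest from the median of the PAG gene, r was -0.308 and -0.368, and without the 4 arrays of wide spread it was -0.449 and -0.381. After the group means were taken away the signs were positive, with r = 0.383 for PAG2 (permutation within groups, p = 0.195, adjusted 0.245) and r = 0.526 for PAG11 (p = 0.0205, adjusted 0.0616), and neither passed after adjustment.

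**Figure D4:**
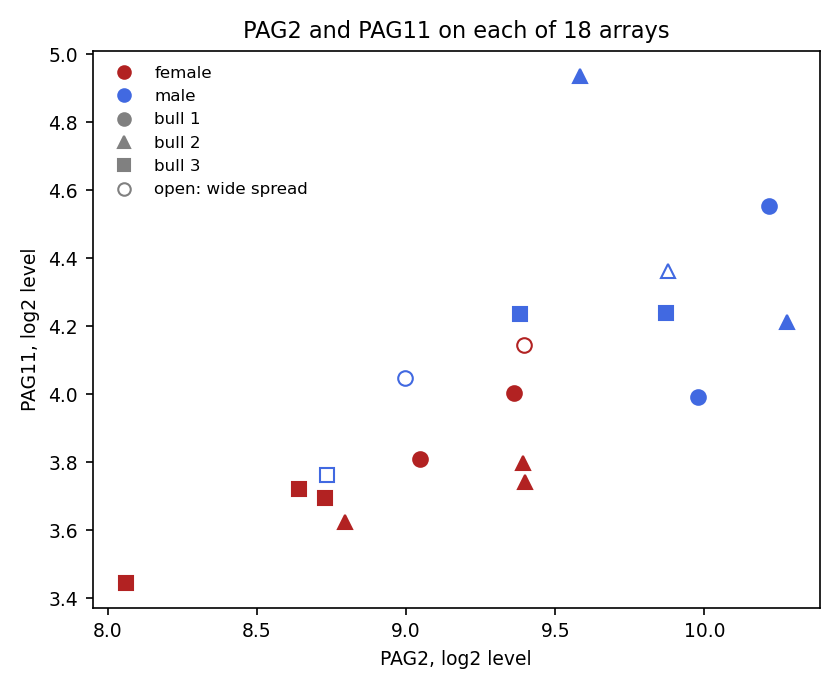
Log2 level of PAG2 (x axis) against PAG11 (y axis) on each of 18 arrays, with females in red, males in blue, a symbol for each bull and open symbols for the 4 arrays of wide spread. The points rise together (r = 0.724), with the females of bull 3 at the lower left and most males at the upper right.

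Other genes were ranked by how closely their levels followed each of these 3 genes over the 18 arrays, as a description with no test. Provisional genes were left out. Closest to PAG2 were TXNDC5 (r = 0.930), CRELD2 (0.909), CNN2 (0.905), PRSS23 (0.897) and DSC2 (0.894). Closest to PAG11 were SSR3 (0.844), CNRIP1 (0.828), SLC25A3 (0.803), CBR4 (0.796) and DLAT (0.794). Closest to SSLP1 were SLC38A11 (0.880), MYLK (0.874), ABHD2 (0.861), LY6G6E (0.858) and ACADM (0.854). PAG2 was not among the 5 closest genes of PAG11, nor PAG11 among those of PAG2.

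Sex and bull enter these values, and within groups the closest genes were others. After the group means were taken away, PAG2 was followed by PLLP (r = 0.958), PLEKHO2 (0.936), EPAS1 (0.932), BIVM (0.922) and GPX4 (0.915). PAG11 was followed by RNF11 (0.865), APOO (0.806), CRYAB (0.785), RELL1 (0.764) and TMED10 (0.757). SSLP1 was followed by TPI1 (0.824), KRT19 (0.810), APOA1 (0.787), PLAC8A (0.780) and DNASE1L3 (0.780). All 18 arrays share their processing. Without the 4 arrays of wide spread, 3 of the 5 genes closest to SSLP1 by level were still among its first 5, which were SLC38A11, LY6G6E and ACADM. Of the other lists of 5, by level or within groups, 0 genes were. By level their r over these 14 arrays ran from 0.905 to 0.926 for PAG2, from 0.788 to 0.846 for PAG11 and from 0.853 to 0.941 for SSLP1. Within groups it ran from 0.865 to 0.942, from 0.642 to 0.871 and from 0.759 to 0.912.

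Relatives of the members were taken from lists, with the brightest probe set of each gene. Over all probe sets 8.12% were higher in females and 7.47% higher in males, and the counts in these short lists were not tested against those shares. Of 5 measured aspartic proteinases of the pepsin family, 1 was higher in females, 0 were higher in males, and the list median was -0.03 log2, the same as over all probe sets. The called gene was the pepsinogen PGA5 (0.39 log2), whose call was lost without bull 1 (adjusted p = 0.165) and without bull 2 (adjusted p = 0.183). CYM, chymosin, had a difference of -0.19 log2, BACE1, a membrane-bound protease, -0.13 log2 and PGC, a pepsinogen, -0.03 log2, and none of them passed. Of 6 measured genes on the list of the Ly-6 family, which leaves out SSLP1, 2 were higher in females and 0 were higher in males. The list median was 0.14 log2. LY6G6C stood at 8.67 ± 0.15 in females and 7.78 ± 0.29 in males (0.89 log2, adjusted p = 6.79e-08 in limma's test) and LYPD3 was higher by 0.38 log2. Both calls held in all alternative fits. LY6G6E, named above among the genes closest to SSLP1, was not on that list and is not in these counts. It was higher in females by 0.40 log2 (adjusted p = 0.00319 in limma's test).

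Of 11 measured products of the ruminant trophoblast besides the members, 3 were higher in females and 0 in males, against 8.12% and 7.47% of all probe sets. The list median was -0.01 log2. The 3 were PLET1, a placental surface protein (1.47 log2), IFNT2, the interferon that signals pregnancy to the dam (0.59 log2), and TKDP1, a secreted Kunitz domain protein (0.51 log2). The other 8, which are the prolactin-related PRP1, PRP3, PRP4, PRP6 and PRP9, the placental lactogen CSH2, TKDP2 and TKDP4, had mean levels from 2.53 to 4.09 and did not pass. PAG2 and PAG11 differed in direction from these called trophoblast products, and SSLP1 ran the same way as they did. Of 14 measured genes of N-glycosylation, the pathway that adds sugars to secreted proteins such as PAG, 2 were higher in females, MAGT1 (0.44 log2) and ALG6 (0.30 log2), and 0 in males, with a median of 0.00 log2. ALG6 lost its call without bull 1 and without bull 2 (adjusted p = 0.0609 and 0.0614).

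Markers of the cell types that the sample could hold were counted in the same way, against 8.12% higher in females and 7.47% higher in males over all probe sets. Of 12 measured trophectoderm markers, 1 was higher in females and 2 in males, the list median being 0.00 log2, and the mean level of the list ran from 6.55 to 6.81 on female arrays and from 6.65 to 6.88 on male arrays. The transcription factors ASCL2 and TFAP2A were higher in males (-0.42 and -0.54 log2), as PAG2 and PAG11 were, and DLX3 was higher in females (0.33 log2). ASCL2 lost its call without bull 3 (adjusted p = 0.129). TFAP2A lost it in 7 of 18 fits without 1 array (adjusted p up to 0.0749) and DLX3 in 10 of 18 (up to 0.0817). Without bull 1 both lost it (adjusted p = 0.0659 for TFAP2A and 0.281 for DLX3). TFAP2A lost it also without bull 3 (0.26) and DLX3 without bull 2 (0.178). ELF5 had a difference of 0.13 log2 and did not pass, nor did the other 8 markers.

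The inner cell mass list had 5 measured genes, of which females had more of 2, STAT3 (0.28 log2) and SPP1 (0.56 log2), and males of 0. For this and the following lists, the shares over all probe sets were 8.12% higher in females and 7.47% higher in males. The inner cell mass list had a median of 0.15 log2 and a list mean from 9.45 to 9.70 in females and from 9.24 to 9.50 in males. STAT3 lost its call without bull 2 (adjusted p = 0.123) and SPP1 without bull 1 and without bull 3 (0.156 and 0.125). Of 12 markers of the primitive endoderm, 1 was higher in females, RBP4 (0.92 log2), and 1 in males, GATA4 (-0.22 log2), with a median of -0.02 log2 and list means from 7.82 to 7.96 and from 7.73 to 7.95. GATA4 lost its call in 9 of 18 fits without 1 array (adjusted p up to 0.0707) and without any 1 of the bulls (0.103 to 0.167). Of the 14 genes listed for cumulus and granulosa cells 4 were higher in females, TIMP2 (0.70 log2), CYP19A1 (0.56 log2), DCN (0.33 log2) and COL1A1 (0.19 log2). In males 1 was higher, COL1A2 (-0.26 log2), and the list median was -0.01 log2. DCN and COL1A1 each lost their call in 13 of 18 fits without 1 array (adjusted p up to 0.10 and 0.0798), and COL1A2 in 2 (up to 0.0551). DCN also lost it without any 1 of the bulls (adjusted p from 0.0634 to 0.204). COL1A1 and COL1A2 lost it without bull 2 (0.263 and 0.0827) and without bull 3 (0.266 and 0.267). The means of that list ran from 5.69 to 6.33 in females and from 5.52 to 6.23 in males. The part of these cell types in the differences of PAG2, PAG11 and SSLP1 was not tested.

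**Figure D5:**
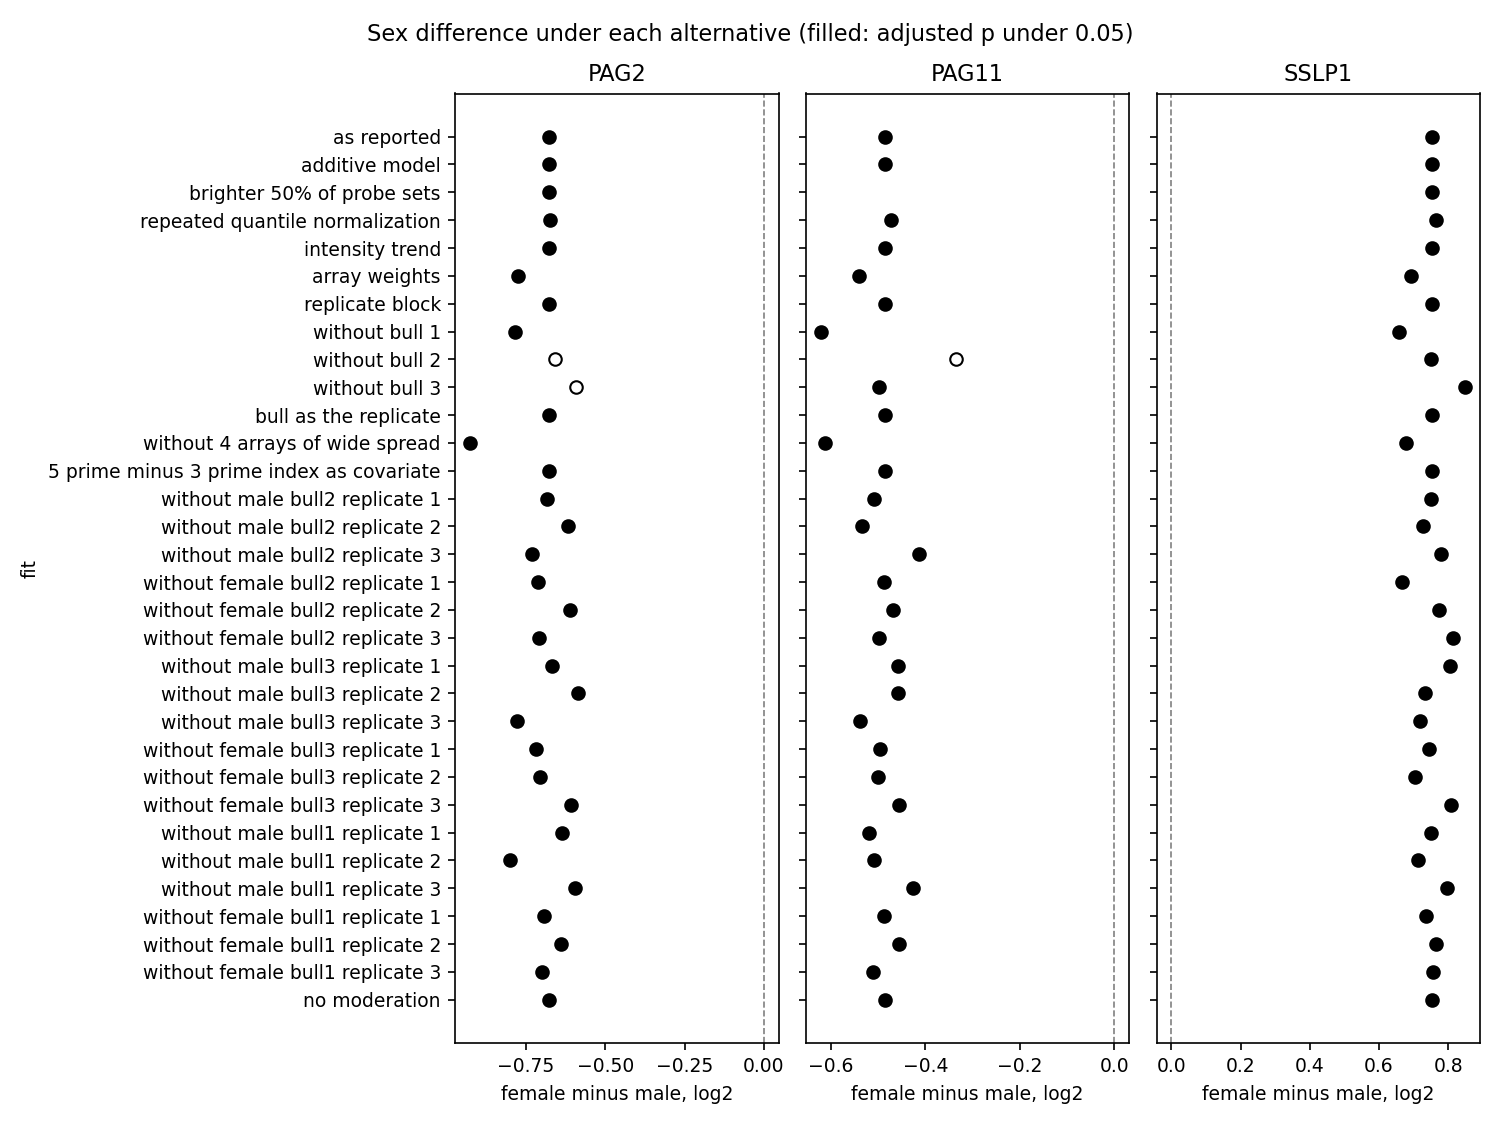
Female minus male difference in log2 (x axis) of PAG2, PAG11 and SSLP1 in the fit as reported and in each alternative fit (y axis), with filled circles where the adjusted p was under 0.05. All values of a gene have 1 sign, and open circles appear only for PAG2 without bull 2 and without bull 3 and for PAG11 without bull 2.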

How the data were processed

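RNA of 18 pools of bovine blastocysts was measured on Affymetrix arrays. The values deposited by the authors are log2 expression levels per probe set. Per the submitters' processing notes, RMA and Partek 6.4 were used, with no step given for either; that the scale is log2 follows from the range of values. Such values draw arrays together and understate large differences of dim transcripts.

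Control probe sets (112 of 24128) were left out. Genes come from GEO's platform annotation, and all 22 member probe sets matched RefSeq's table of ARS-UCD2.0 by gene number. Means of the 6 groups were fitted on all probe sets (limma 3.58.1 under R 4.3.3, moderated, with 12 residual degrees of freedom). Benjamini-Hochberg adjustment ran over all probe sets, with contrasts for sex, sex within bulls, their interaction and the bulls. The script was tested on simulated data. Named genes were all members, the 5 most similar genes, and up to 4 genes per list with the smallest p for sex. XIST, the tissue markers given by level, the trophoblast products that did not pass, DCN, and POSTN were named after their values were seen. The members, lists and the group of 4 arrays of wide spread were chosen with earlier results of these data known. Alternatives were other models, normalization, weights, filters and left-out arrays or bulls. Correlations were tested with 100000 permutations. Same-numbered female and male arrays of a bull did not deviate together (r from -0.181 to 0.103), so the numbers were not taken as pairs.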

Additional observations from a re-analysis of the deposited data

Results flagged for a closer look

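In the members, 44 sets of 9 arrays of 1 sex were searched for an array far from the others, and 3 were found, where chance gives about 1 in 20. PAG20 stood at 2.89 on male bull 3 replicate 3, the lowest male, with the next at 3.36. PAG5 stood at 3.82 on female bull 1 replicate 3, the highest female, with the next at 3.25. PAG14 on probe set Bt.15985.1.S1_at stood at 3.53 on male bull 1 replicate 3, the highest male, with the next at 3.21. The first 2 are arrays of wide spread. None of the 3 probe sets passed the test for sex.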

How the results depend on the processing

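PAG2, PAG11 and SSLP1 kept the sign of their sex difference in every alternative fit that was run, 31 for PAG2 and SSLP1 and 30 for PAG11, which the filter on brightness removed. The calls were lost for PAG2 without bull 2 (-0.66 log2) and without bull 3 (-0.59 log2), and for PAG11 without bull 2 (-0.34 log2). Fits without 1 array kept all 3 calls, with -0.80 to -0.59 log2 for PAG2, -0.54 to -0.41 for PAG11 and 0.67 to 0.81 for SSLP1. For sex over all bulls, the other 19 members were called in 0 of 574 alternative values, and their sign turned in 33. Over all probe sets, 3743 differed by sex, against 2044 without bull 2 and 2182 without bull 3, where fewer arrays were fitted. In at least 1 comparison of bulls 1663 differed, against 4252 with array weights, 414 with the 5′ minus 3′ index as a covariate and 768 to 2470 without 1 array; the cause was not tested. With the sample number as a replicate block, PAG2 kept -0.68 log2 (adjusted p = 0.00362) and 2977 probe sets differed by sex, and SSLP1 lost its call in bull 2 (adjusted p = 0.0549). SSLP1 lost that call also with repeated quantile normalization, the covariate, without bull 1 and without the arrays of wide spread (adjusted p from 0.0521 to 0.0983). In bull 3, array weights made PAG2 (-0.88 log2), PAG11 and PAG6 (-0.36 log2) pass, with adjusted p of 0.0109, 0.0202 and 0.0405, and PAG2 passed without the arrays of wide spread (adjusted p = 0.0169). That block cannot be fitted for differences between bulls. Leaving out the arrays of wide spread kept the 3 sex calls over all bulls, as did the fit without moderation. Those arrays were chosen with earlier results of these data known, and the fit without moderation was added after seeing the data. Dim signal limits what can be seen in the other PAG genes.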
